A study of Mus musculus with 4 samples.

Results

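Protein phosphatase 1 (PP1) has 3 catalytic subunit genes in the mouse, Ppp1ca, Ppp1cb and Ppp1cc, and these are 3 of the 32285 genes counted in single nuclei of the lateral septum (LS). The genes were chosen by symbol, with the knowledge that Ppp1cc was lower in oligodendrocytes of nude and BALB/c mice, so the values of all 3 genes in oligodendrocytes and the order of their levels across cell classes are given as descriptions without a test. PP1 is a serine/threonine phosphatase whose catalytic subunit removes phosphate groups and rarely acts alone. A regulatory subunit bound to it sets the substrate and the place in the cell, such as myosin, glycogen particles, dendritic spines or chromatin, and inhibitor proteins hold it inactive. In the brain PP1 is known for its action at synapses, where DARPP-32 (Ppp1r1b) inhibits it in striatal neurons, and in all cells for its part in leaving mitosis.

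Nuclei were taken from LS tissue of male mice of 6 to 8 weeks, with the tissue of 3 mice pooled in each of 4 libraries. Libraries C57J 1 and C57J 2 came from separate sets of C57BL/6JNifdc mice, 1 library came from BALB/c nude mice, a T-cell-deficient line on the BALB/c background, and 1 from BALB/c mice. C57J 1 was the only library of batch 1, and the other 3 libraries belonged to batch 2. Strain and immune state cannot be told apart in a comparison of C57J with both other groups, and because nude and BALB/c have 1 library each, the spread between pools of these strains is not known. The libraries held 72912922 to 125998527 unique molecular identifiers (UMIs), and 49425 nuclei were kept. Each pair of libraries shared 29 to 63 cell barcodes, at most 0.478% of the smaller library. Nuclei were grouped into 12 classes by marker genes, and each class name stands for nuclei that resemble that type by these markers. In the oligodendrocyte class, the myelin gene Mog was at 603 to 779 CPM (the UMIs of a gene divided by all UMIs of the class in that library, scaled to 1e+06), and 4 neuronal markers summed to 791 to 2332 CPM.

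Ppp1ca lies on mouse chromosome 19 (GRCm38, chr19:4192065-4195420, plus strand), and Ppp1cb and Ppp1cc lie far apart on chromosome 5 (chr5:32458843-32517433 and chr5:122158278-122175273, both plus strand). All are protein-coding genes of the GENCODE vM21 annotation. Their coding sequences are 75.3% identical between Ppp1ca and Ppp1cb, 79.0% between Ppp1ca and Ppp1cc and 75.5% between Ppp1cb and Ppp1cc. Because a read can be assigned only where these genes differ, the coding stretch of 60 bases within 1 exon that they share most and the stretch that they share least are shown, with bases common to all 3 genes in capitals.
The most similar stretch shares 52 of 60 bases and lies in exon 6 of Ppp1ca (chr19:4194838-4194897), exon 7 of Ppp1cb (chr5:32487637-32487696) and exon 6 of Ppp1cc (chr5:122173212-122173271):
Ppp1ca: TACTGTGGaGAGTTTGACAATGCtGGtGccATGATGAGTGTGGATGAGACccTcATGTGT
Ppp1cb: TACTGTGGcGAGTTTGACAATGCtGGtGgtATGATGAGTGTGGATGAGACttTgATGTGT
Ppp1cc: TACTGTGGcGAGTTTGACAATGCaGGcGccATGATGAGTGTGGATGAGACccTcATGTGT
The least similar stretch shares 29 of 60 bases and lies in exon 2 of Ppp1ca (chr19:4192747-4192806), Ppp1cb (chr5:32478068-32478127) and Ppp1cc (chr5:122168177-122168236):
Ppp1ca: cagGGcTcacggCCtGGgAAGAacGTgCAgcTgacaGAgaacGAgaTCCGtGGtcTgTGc
Ppp1cb: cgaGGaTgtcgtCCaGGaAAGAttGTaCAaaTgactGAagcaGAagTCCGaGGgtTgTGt
Ppp1cc: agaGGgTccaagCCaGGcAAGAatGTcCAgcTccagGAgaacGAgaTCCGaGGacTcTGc
With 1 whole transcript taken per gene, untranslated ends included, the longest run of identical bases between 2 of the genes was 44, between Ppp1ca and Ppp1cc, and it was 20 for Ppp1ca with Ppp1cb and 23 for Ppp1cb with Ppp1cc.

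A closer copy of Ppp1cc exists elsewhere in the genome. Ppp1ccb, on chromosome 7 (GRCm38, chr7:119739926-119742226, plus strand), is a transcribed processed pseudogene in GENCODE vM21 and a protein-coding gene in RefSeq. All 972 bases of its annotated transcript Ppp1ccb-201 were identical to 1 unbroken stretch of Ppp1cc-202. Ppp1ccb was not among the genes counted, so it has no values of its own here. Within these bases RNA of the 2 loci cannot be told apart by sequence. The rest of the Ppp1ccb locus, annotated over 2.3 kb, was not compared, although 3' libraries may hold reads from beyond this stretch. How far each Ppp1cc value below is uncertain is therefore not known. Which locus the Ppp1cc UMIs came from was not tested. The genes beside Ppp1ccb were looked up after the Ppp1cc values were seen. In oligodendrocytes, Thumpd1 was at 34.8 and 25.8 CPM in C57J 1 and C57J 2, and at 25.4 and 30.5 CPM in nude and BALB/c. The long noncoding RNA Gm44866 was at 60.6, 74.1, 57.9 and 92.0 in the same order, so the strains overlapped for these genes. Eri2, also within 30 kb, was at 16.9, 23.1, 10.1 and 9.23, with nude and BALB/c below both C57J libraries. That order held for 20.6% of 12595 genes tested in oligodendrocytes. Acsm3 had it too, at 3.35 CPM or less, and Acsm4 was at 0.162 CPM or less.

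RefSeq windows from 250 bases before to 50 after an annotated start were found for 2 of the 3 genes, Ppp1cb (GRCm38.p6, chr5:32458720-32459019, plus strand) and Ppp1cc (GRCm38.p6, chr5:122158025-122158324, plus strand). Each window contains the GENCODE gene start given above. The RefSeq record of Ppp1cc begins further upstream, at base 122154967, and that start is not covered by the window. The windows are shown because Ppp1cc, and not Ppp1cb, had the large strain difference in oligodendrocytes. Both come from the reference genome, and no sequence of another strain was compared, so they show no difference between strains. Capitals mark the GC box GGGCGG and the SOX-factor core ACAAAG on either strand.
Ppp1cb: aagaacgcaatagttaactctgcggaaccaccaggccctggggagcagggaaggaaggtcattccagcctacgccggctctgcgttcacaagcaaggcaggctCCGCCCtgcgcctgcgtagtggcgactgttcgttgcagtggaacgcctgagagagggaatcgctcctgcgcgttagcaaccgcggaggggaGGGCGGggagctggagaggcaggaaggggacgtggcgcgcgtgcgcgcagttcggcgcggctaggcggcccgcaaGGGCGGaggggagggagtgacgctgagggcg
Ppp1cc: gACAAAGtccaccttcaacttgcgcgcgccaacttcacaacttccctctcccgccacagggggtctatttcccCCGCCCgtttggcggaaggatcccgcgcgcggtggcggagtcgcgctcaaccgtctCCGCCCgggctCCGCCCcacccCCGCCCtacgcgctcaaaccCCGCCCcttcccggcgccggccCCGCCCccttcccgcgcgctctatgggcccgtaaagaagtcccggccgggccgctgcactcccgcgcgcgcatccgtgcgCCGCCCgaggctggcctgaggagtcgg
The Ppp1cc window held 7 GC boxes and 1 ACAAAG match, and the Ppp1cb window held 3 GC boxes and 0 ACAAAG matches. Of 32851 promoter windows of the same length, 35.7% held a GC box and 18.7% held ACAAAG or its reverse complement. How many windows held as many GC boxes as these genes was not counted. The matches describe these letters only.

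Ppp1cc encodes the gamma catalytic subunit, which is known for its place at chromosomes and kinetochores. In oligodendrocytes the C57J 1 library gave 464 CPM (1480 UMIs) and the C57J 2 library 248 CPM (741 UMIs), whereas nude gave 40.7 CPM (85 UMIs) and BALB/c 32.2 CPM (199 UMIs). Both C57J libraries lay far above the nude and BALB/c libraries, and the 2 C57J libraries also differed from each other. The ratio of C57J 1 to C57J 2 was 1.87 (exact 95% counting interval 1.71 to 2.04). Within batch 2, C57J 2 was 6.10 times nude (4.87 to 7.73) and 7.71 times BALB/c (6.58 to 9.06), whereas nude was 1.26 times BALB/c (0.968 to 1.64). These intervals cover counting error only and not the spread between mice. The log2 ratio of the mean of nude and BALB/c to the mean of C57J was -3.29, and it was -2.77 against C57J 2 alone. The same ratio was -0.54 for Ppp1ca and -0.15 for Ppp1cb. In oligodendrocytes 20.6% of 12595 genes tested were lower in nude and BALB/c without overlap, as all 3 catalytic subunit genes were, and 0.0715% were called by the test used below. Since this contrast chose the genes, nothing is read from either share.

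**Figure D1:**
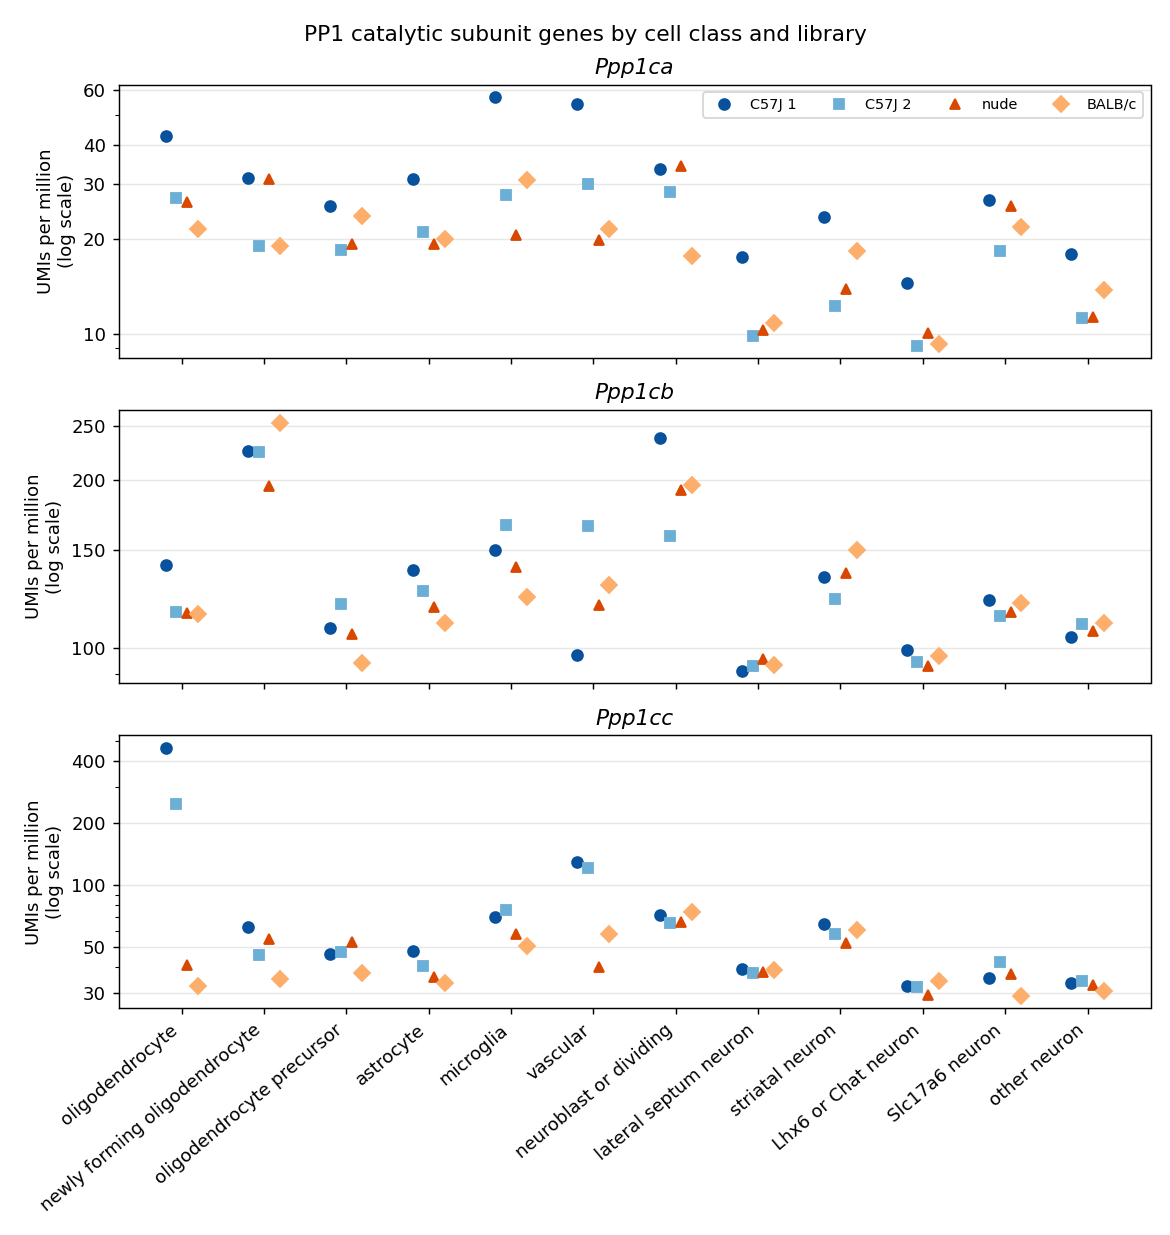
CPM (log scale) of Ppp1ca, Ppp1cb and Ppp1cc in 12 cell classes, with 1 point per library (C57J 1, C57J 2, nude, BALB/c). For Ppp1cc the 2 C57J oligodendrocyte points, at 464 and 248, stand above every other point of the gene, and for Ppp1ca C57J 1 is the highest library in 11 of 12 classes.

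The level of Ppp1cc in C57J oligodendrocytes stood above that of every other class in the same library. In C57J 1 it was 3.57 times that of vascular nuclei (2.04 to 6.93) and 14.3 times that of Lhx6 or Chat neurons (11.7 to 17.6), with the other classes between. In C57J 2 it was 2.06 times that of vascular nuclei (1.04 to 4.79) and 7.73 times that of Lhx6 or Chat neurons (6.26 to 9.65). In nude and BALB/c mice, oligodendrocytes were not set apart. Their level was 1.08 times (0.857 to 1.34) and 0.837 times (0.720 to 0.967) that of LS neurons. It was 0.615 times (0.399 to 0.972) and 0.437 times (0.337 to 0.572) that of neuroblasts or dividing nuclei.

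Along the oligodendrocyte lineage the high C57J values appeared late. Oligodendrocyte precursors held Ppp1cc at 46.0 and 47.1 CPM in C57J 1 and C57J 2, 52.7 in nude and 37.5 in BALB/c. Newly forming oligodendrocytes, marked by Gpr17, Enpp6 and Bmp4, held 62.7, 45.7, 54.7 and 34.9 in the same order, from 7 to 20 UMIs per library. In both stages the strains overlapped. Oligodendrocytes were split further after the values were known. A subcluster of 250 nuclei led by 9630013A20Rik, Ctps and Prom1 held Ppp1cc at 107 and 54.1 CPM in C57J 1 and C57J 2, 37.9 in nude and 33.3 in BALB/c. The remaining 5094 nuclei, led by 4930420G21Rik, A330049N07Rik and Anln, held 495, 271, 40.9 and 32.1. In C57J 1 the larger subcluster held 1453 of the 1480 Ppp1cc UMIs, and also 1213 of the 1272 nuclei and 2934808 of the 3186878 UMIs of the class. In the smaller subcluster the Ppp1cc counts were 27, 17, 4 and 18 UMIs in the 4 libraries.

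To set libraries of unequal depth side by side, each nucleus was thinned to 1000 UMIs. A Ppp1cc UMI was then found in 34.7% of 1254 oligodendrocyte nuclei of C57J 1 (exact Clopper-Pearson 95% interval 32.1 to 37.4%) and 21.6% of 1405 nuclei of C57J 2 (19.5 to 23.9%). It was found in 3.73% of 1098 nuclei of nude (2.69 to 5.03%) and 3.25% of 1507 nuclei of BALB/c (2.42 to 4.28%). Oligodendrocyte precursors gave 6.02%, 5.29%, 5.28% and 3.82% in the same order, so the oligodendrocytes of nude and BALB/c were no higher than the precursors of the same libraries. At least 2 Ppp1cc UMIs were held by 10.8% and 4.41% of the C57J oligodendrocytes and by 0% and 0.0664% of those of nude and BALB/c. The 0 of 1098 nuclei of nude allows a share of up to 0.273%. Before thinning the shares were 56.8%, 34.7%, 7.05% and 11.6%, with median depths of 2332, 1908, 1688 and 3810 UMIs. At 1000 UMIs, Ppp1cb, the beta subunit gene, was found in 14.4%, 9.54%, 10.9% and 9.82% of oligodendrocytes and Ppp1ca, the alpha subunit gene, in 4.63%, 2.85%, 2.09% and 2.32%.

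**Figure D2:**
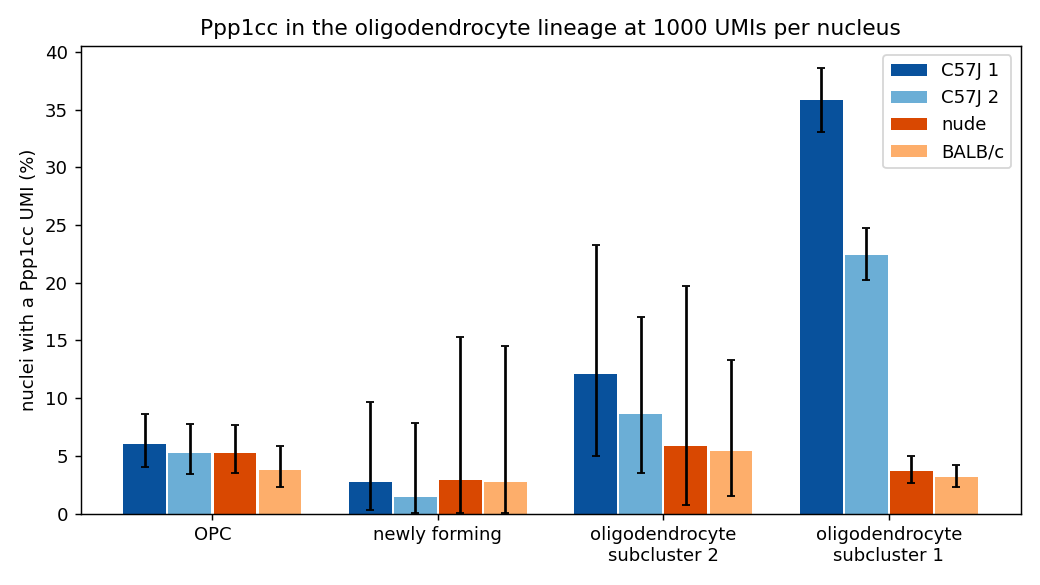
Share of nuclei with at least 1 Ppp1cc UMI after thinning to 1000 UMIs (percent), with exact 95% intervals that cover counting error, for oligodendrocyte precursors (OPC), newly forming oligodendrocytes and 2 oligodendrocyte subclusters in each library. The C57J bars rise to 35.8% and 22.4% in subcluster 1, where nude and BALB/c stay at 3.67% and 3.14%.

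The summed neuronal and astrocyte markers moved differently from Ppp1cc among the oligodendrocyte libraries, while striatal markers fell in the same order. The summed level of 4 neuronal markers was 1550 and 1617 CPM in C57J 1 and C57J 2, 2332 in nude and 791 in BALB/c. That of 8 astrocyte markers was 1490, 1004, 1391 and 697. Both lists were thus highest or near highest in nude and lowest in BALB/c, whereas Ppp1cc was low in both. The striatal Drd1 list was at 108, 81.5, 67.5 and 34.3 and the Drd2 list at 126, 105, 97.7 and 52.3. The dividing and ependymal lists also had nude and BALB/c below both C57J libraries, with highest values of 8.05 and 10.0 CPM. Of the oligodendrocyte markers, the myelin gene Mog was at 632, 749, 603 and 779 CPM and Mag at 670, 772, 529 and 601 CPM. For both genes nude was lowest, and BALB/c lay above both C57J libraries for Mog and below them for Mag. The part of these differences in the Ppp1cc values was not tested.

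The genes around Ppp1cc on chromosome 5 are given as a description. Because Ppp1cc was chosen with its fall in oligodendrocytes known, nothing is read from the larger size of its shift. Of 40 other genes annotated with a start within 500 kb, 26 were counted and 19 passed the filter on low counts in oligodendrocytes. Of these, 9 had lower and 10 higher fitted values in nude and BALB/c, with a median log2 fold change of 0.00084 and a range of -0.68 to 1.77, beside -3.25 for Ppp1cc in the same fit. The 3 of largest size were Gm42829, a sense intronic RNA 250 kb downstream of the Ppp1cc start, Pheta1 and the antisense RNA Gm16552. Gm42829 was measured at 2.82 and 1.68 CPM in C57J and 11.97 and 4.54 in nude and BALB/c. Pheta1, which encodes an endosomal adaptor, was at 8.47, 5.70, 3.35 and 4.70, and Gm16552 was at 9.41, 16.1, 8.62 and 6.96. All 3 rest on low counts. Better counted neighbours, named after their values were seen, included Cux2, a transcription factor gene, at 73.1, 112.7, 55.1 and 61.1. P2rx7, an ATP-gated channel gene, was at 33.9, 33.9, 22.0 and 23.5. For both genes nude and BALB/c lay below the C57J libraries, with fitted log2 fold changes of -0.61 and -0.51. That order held for 20.6% of the genes tested in oligodendrocytes. Atp2a2 and Atxn2, the neighbours at the highest levels, had fitted values of 0.09 and -0.05. Outside oligodendrocytes Cux2 had an unadjusted p below 0.05 (edgeR) in 4 of 10 classes, each time higher in nude and BALB/c. It was not called in microglia, LS neurons or Lhx6 or Chat neurons, with log2 fold changes of 1.51, 0.41 and 0.37. The call was in other neurons, where 1.18% of genes were called, at 98.6 and 105 CPM against 69.8 and 65.4 in C57J (log2 fold change 0.59 ± 0.11, SE, adjusted p = 0.0381, edgeR). That call was lost without nude (adjusted p = 0.231), BALB/c (0.480) or C57J 2 (0.0807), at resolution 2 (0.0785) and with classes from marker UMIs (0.129), and over all alternatives the adjusted p ranged from 0.0233 to 0.480.

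**Figure D3:**
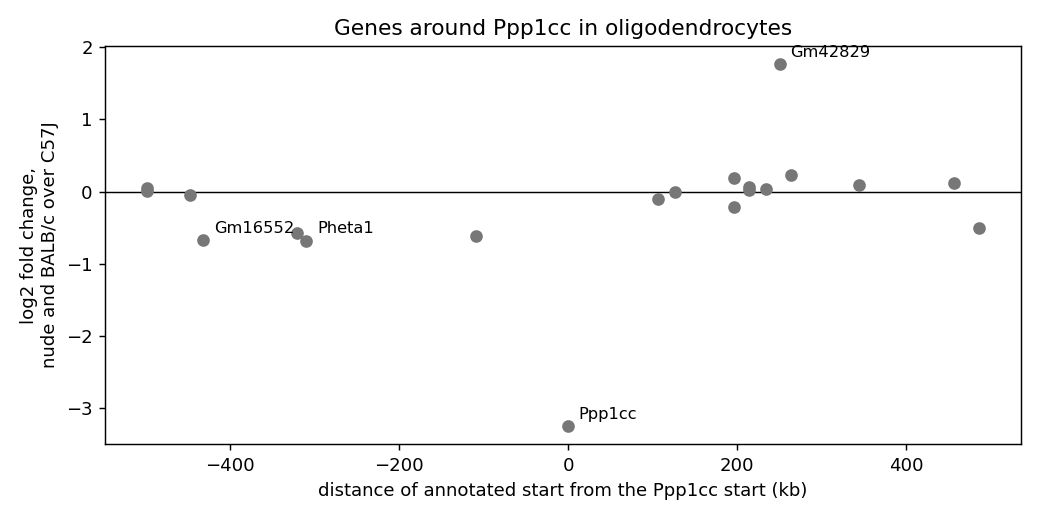
Log2 fold change of nude and BALB/c over C57J in oligodendrocytes (fitted by edgeR, shown without a test) against the distance of each gene's start from the start of Ppp1cc in kb, for Ppp1cc and the 19 neighbours that passed the filter. Ppp1cc, chosen with its fall in this class known, lies at -3.25 and the neighbours between -0.68 and 1.77.

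Outside oligodendrocytes, Ppp1cc was at like levels across libraries in neuroblasts or dividing nuclei and in LS, striatal, Lhx6 or Chat and other neurons. It varied more in the other glial classes, in vascular nuclei and in Slc17a6 neurons, at 28.9 to 42.4 CPM in the last. In LS neurons, the largest class, C57J 1 and C57J 2 gave 39.0 and 37.5 CPM, and nude and BALB/c gave 37.8 and 38.5 CPM. The strains overlapped, and the log2 fold change was 0.02 ± 0.09 (SE, 95% interval -0.21 to 0.25, adjusted p = 0.958, edgeR's quasi-likelihood test, 2 libraries against 2). In striatal neurons it was 64.6, 57.7, 52.4 and 60.8, and in neuroblasts or dividing nuclei 71.5, 65.2, 66.2 and 73.7. In microglia it was 70.1, 75.7, 57.7 and 50.7, and in astrocytes 48.1, 40.4, 35.9 and 33.6. In these 2 classes and in other neurons and vascular nuclei, nude and BALB/c lay below both C57J libraries. The same held for 18.9%, 26.1%, 21% and 18.1% of all genes tested in microglia, astrocytes, other neurons and vascular nuclei, so such an order was common there. The vascular values of 130, 120, 39.8 and 57.7 rest on 12, 8, 2 and 8 UMIs, and the gene did not pass the filter in that class. The make-up of that class also differed by library. Its summed endothelial markers were at 2567 CPM in C57J 1 and 50.5 in BALB/c, and its fibroblast markers at 314 and 2092. Ppp1cc was lowest in Lhx6 or Chat neurons, at 32.1 ± 2.05 CPM (SD, n = 4 libraries), and in the order of classes by mean level each class overlapped the next, as also for Ppp1ca.

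Ppp1cc passed the filter in 10 of the 11 other classes and was called in 0 of them, where a call required both an adjusted p under 0.05 and a log2 fold change of over 0.5 in size. Ppp1cb passed in 11 classes and Ppp1ca in 9, also with 0 calls, and of the 30 tests 0 had an unadjusted p below 0.05. DESeq2 called 0 as well, while of all genes it called from 3 of 4944 in newly forming oligodendrocytes to 657 of 18683 in LS neurons. Over all genes, the share called by edgeR was 2.18% in LS neurons, 1.18% in other neurons, 0.916% in Lhx6 or Chat neurons, 0.528% in striatal neurons and 0.22% in oligodendrocyte precursors. It was 0.0695% in neuroblasts or dividing nuclei, 0.0565% in astrocytes, 0.0405% in newly forming oligodendrocytes, 0.0303% in Slc17a6 neurons and 0% in microglia and vascular nuclei. With so few calls in most classes, 0 calls among 3 genes lies near this background. In microglia and vascular nuclei, where edgeR called 0 genes in all, 458 and 110 genes had an unadjusted p below 0.05 and DESeq2 called 20 and 3. The intervals come from a fit that put nude and BALB/c together as a group and had no batch term. Differences between nude and BALB/c and between batches are thus part of their spread. The spread between pools of a strain is not measured by them. For Ppp1cc they reached from -1.07 to 0.28 in microglia and from -1.31 to 0.70 in newly forming oligodendrocytes, on the log2 scale.

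**Figure D4:**
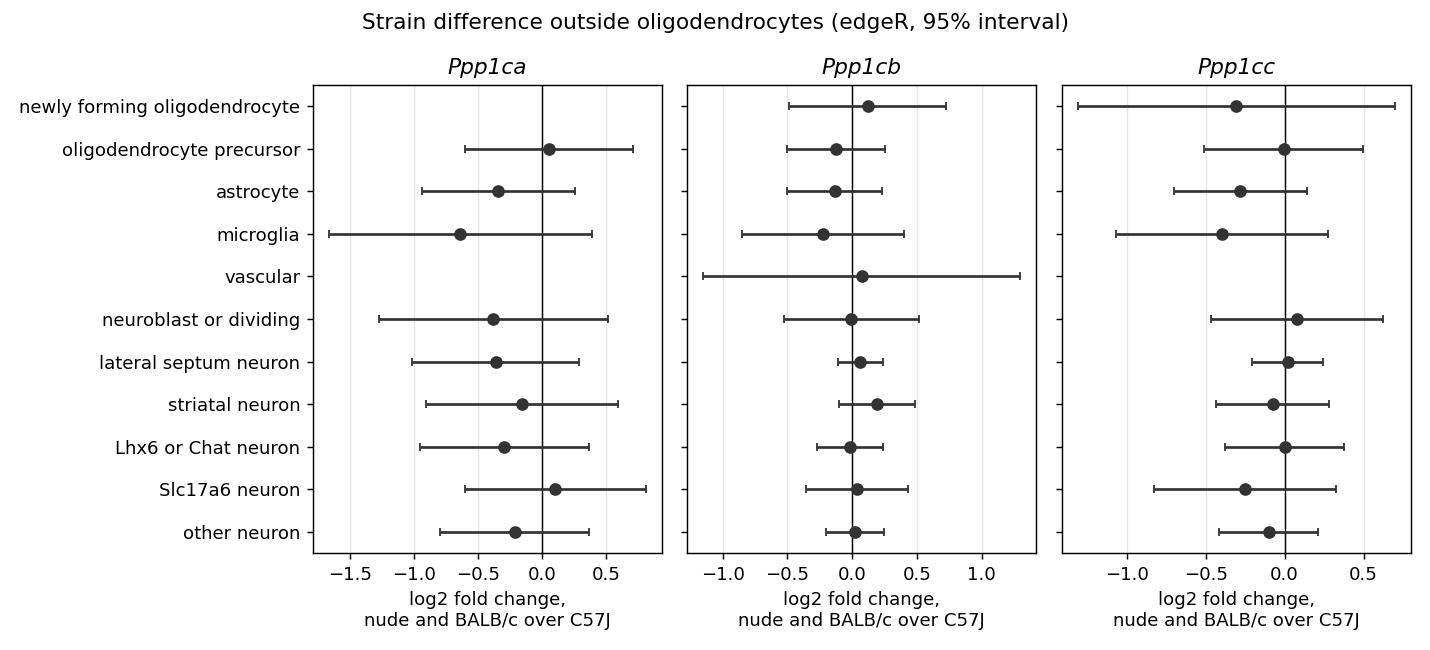
Log2 fold change of nude and BALB/c over C57J with 95% intervals (edgeR) for the 3 genes in the 11 classes other than oligodendrocytes, with no point where a gene did not pass the filter. All 30 intervals include 0, and they are narrowest in LS neurons for Ppp1cb and Ppp1cc.

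Ppp1cb encodes the beta subunit, the catalytic partner in myosin phosphatase. Its level was highest in newly forming oligodendrocytes, at 226 and 225 CPM in C57J 1 and C57J 2, 195 in nude and 254 in BALB/c. Neuroblasts or dividing nuclei followed, at 238, 159, 192 and 196, and the ranges of these 2 classes overlapped. LS neurons were lowest, at 91.2, 92.9, 95.9 and 93.3. Between the classes in this order, the libraries of each class overlapped those of the next with the exception of Slc17a6 neurons, which lay above other neurons in 4 of 4 libraries. In oligodendrocytes Ppp1cb was at 141, 116, 116 and 115, so C57J 2, nude and BALB/c were alike and only C57J 1 was higher.

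Ppp1cb had lower values in nude and BALB/c in some classes and higher values in others, and the difference between classes was not tested. In microglia it was 150 and 166 CPM in C57J and 140 and 124 in nude and BALB/c, in astrocytes 138, 127, 118 and 111, and in oligodendrocyte precursors 109, 120, 106 and 94.1. In these 3 classes nude and BALB/c were below both C57J libraries. In striatal neurons the values were 134 and 123 in C57J and 137 and 150 in nude and BALB/c, above both C57J libraries, as also in LS neurons. In vascular nuclei, neuroblasts or dividing nuclei, newly forming oligodendrocytes and the other 3 neuron classes the groups overlapped. The same order was found for 18.9%, 26.1% and 24.6% of all genes tested in microglia, astrocytes and precursors, and the opposite one for 15.8% in striatal and 18.9% in LS neurons. The lowest fitted log2 fold change was -0.23 ± 0.27 (SE) in microglia and the highest 0.19 ± 0.13 in striatal neurons (edgeR, adjusted p = 0.948 and 0.739), and none of these differences was called.

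Ppp1ca, which encodes the alpha subunit, was set apart by 1 library. In microglia, the class with its highest mean, it was at 56.8 CPM in C57J 1 and 27.7 CPM in C57J 2, and at 20.6 and 30.9 CPM in nude and BALB/c. Microglia were the highest class only in C57J 1 and BALB/c. Vascular nuclei were higher in C57J 2, at 30.1, from few UMIs (11 over all libraries), and neuroblasts or dividing nuclei in nude, at 34.3. In LS neurons Ppp1ca was at 17.5, 9.85, 10.3 and 10.9. C57J 1, the library of batch 1, was the highest in 11 of 12 classes. In microglia and LS neurons C57J 2 lay near the nude and BALB/c values. In astrocytes nude and BALB/c were below both C57J libraries, where the share of all genes given above for Ppp1cc applies. Vascular nuclei had the same order on these few UMIs. Ppp1ca did not pass the filter there, so the share given above for that class covers better counted genes. In LS neurons the log2 fold change was -0.36 ± 0.27 (SE, adjusted p = 0.631, edgeR). Without C57J 2, so that C57J 1 alone stood for its strain, it was -0.73 (adjusted p = 0.0174) and was called, and without C57J 1 it was 0.15 (adjusted p = 0.833). Over all its alternatives the adjusted p ranged from 0.0174 to 0.951. The direction of Ppp1ca in these neurons therefore rests on C57J 1.

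C57J 1 also held the most mitochondrially encoded RNA. In LS neurons the 13 mitochondrial genes summed to 3439 CPM in C57J 1 and 1403 CPM in C57J 2, against 1784 and 2032 CPM in nude and BALB/c, and in microglia to 15407, 7070, 8203 and 9963. The 95 ribosomal protein genes gave 3417, 2774, 2733 and 2995 in LS neurons. Of all genes with a mean of at least 10 CPM, those most like Ppp1ca over 48 units of class and library were Rplp1 (Pearson r = 0.91), mt-Nd5 (0.89), mt-Co2 (0.89), Rps10 (0.89) and mt-Nd2 (0.89), all genes of ribosomal proteins or of the mitochondrial genome. The part of this RNA in the Ppp1ca values was not tested.

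**Figure D5:**
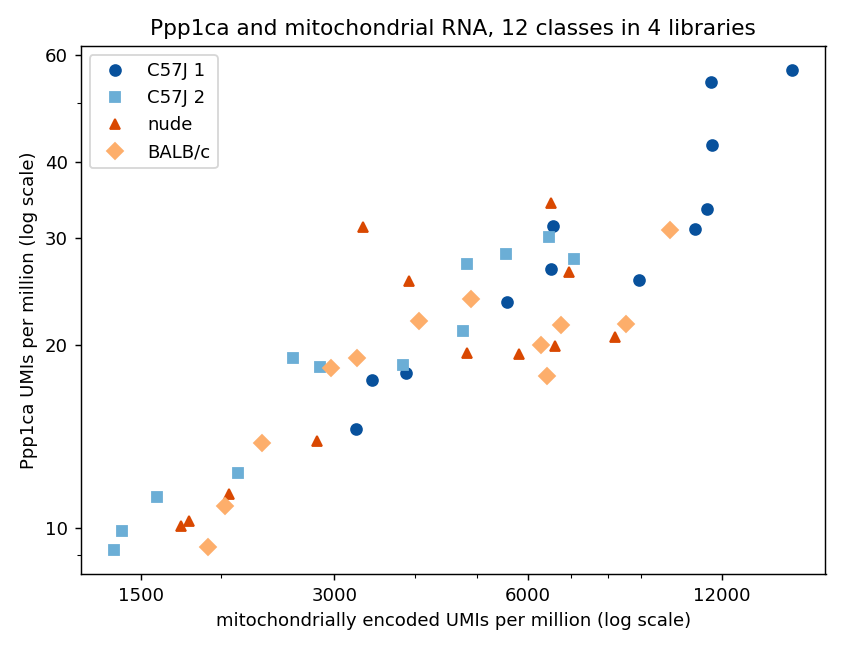
Ppp1ca against mitochondrially encoded RNA, both in CPM on log scales, with 1 point for each of 12 classes in each of 4 libraries. The C57J 1 points reach furthest on both axes, to 15407 and 56.8 in microglia.

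Ppp1cb and Ppp1cc had other genes nearest to them over the same 48 units. For Ppp1cb these were Tuba1a (r = 0.79), Sox4 (0.79), Srsf3 (0.77), Zfp638 (0.77) and Chd3 (0.75), and for Ppp1cc they were Ywhaq (0.67), Fgfr1op2 (0.67), Kif5b (0.64), Ctps (0.64) and Git1 (0.63). The units share libraries and depth, so these values describe likeness only. They include the oligodendrocytes, where the fall of Ppp1cc was known when it was chosen. In oligodendrocytes the 5 genes nearest to Ppp1cc varied far less between libraries than Ppp1cc, which was chosen with its fall there known. Ywhaq, a 14-3-3 protein gene, was at 370, 332, 246 and 338 CPM there, and Kif5b, a kinesin motor gene, at 247, 229, 164 and 143. For Kif5b, Fgfr1op2 and Ctps nude and BALB/c lay below both C57J libraries, as for 20.6% of all genes tested in oligodendrocytes. For Ywhaq and Git1 the strains overlapped.

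PP1 regulatory subunits were then examined, from a list of 56 genes of which 55 were found in the files. Over the 11 classes other than oligodendrocytes, 379 tests were made, of which 1 was called lower and 0 higher, and 29 (7.65%) had an unadjusted p below 0.05. Of all genes tested, 5.17 to 14.6% by class had such a p and 0 to 2.18% were called, so the list lies within this background. The median log2 fold change of the list lay between -0.14 and 0.08 by class, beside -0.02 to 0.08 for all genes tested. In oligodendrocytes 0 of 40 were called by edgeR and 0 by DESeq2 (1 with an unadjusted p below 0.05 in edgeR), with a median of -0.02 beside -0.01 for all genes. Of all 12595 genes tested there, edgeR called 9 and DESeq2 82.

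The called gene was Tox4, whose protein is part of a complex with PP1 and its nuclear partner PNUTS (Ppp1r10) on chromatin. In LS neurons Tox4 gave 43.3 CPM in C57J 1 and 50.6 CPM in C57J 2, and 29.1 CPM in both nude and BALB/c. Both C57J libraries lay above the others, and the log2 fold change was -0.66 ± 0.10 (SE, adjusted p = 0.0287, edgeR), in a class in which 2.18% of genes were called. The call was lost without nude (adjusted p = 0.142) and without BALB/c (adjusted p = 0.217), while the fold change stayed at -0.65 and -0.67. Over all alternatives the adjusted p ranged from 8.12e-05 with DESeq2 to 0.217. The fitted value of Tox4 was below 0 in all 9 classes other than oligodendrocytes in which it passed the filter, LS neurons included. Values ran from -1.03 in Slc17a6 neurons to -0.40 in astrocytes, and 5 of these classes had an unadjusted p below 0.05 (edgeR). The classes come from the same pooled libraries, so they are not independent repeats, and Tox4 was named for its call. Its partners were called in 0 classes. Wdr82, another member of the same complex, had values from -0.19 to 0.61, with an unadjusted p below 0.05 (edgeR) in 3 of 9 classes. Ppp1r10 had values from -0.72 to 0.63, with such a p in 2 of 10 classes. In each of these cases the gene was higher in nude and BALB/c, opposite to Tox4.

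Among the inhibitors, Ppp1r14c, which blocks PP1 when phosphorylated, had the highest mean level and was most abundant in oligodendrocyte precursors, at 207, 197, 252 and 253 CPM in C57J 1, C57J 2, nude and BALB/c. Nude and BALB/c lay above both C57J libraries there, and how common that order was among all genes is not given. The log2 fold change of Ppp1r14c there was not called. Over 10 classes it ranged from -0.28 to 0.61, with an unadjusted p below 0.05 in 2 and 0 calls by edgeR. Of the glycogen-targeting subunits Ppp1r3f led, at 15.3 ± 2.45 (SD, n = 4 libraries) in other neurons. Ppp1r12a, the myosin-binding partner of Ppp1cb, led the membrane and myosin group and was at 343 ± 61.7 in microglia and 280 in oligodendrocytes, with 260, 294, 281 and 286 by library. The strains overlapped there.

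Of the actin and synapse group, Phactr1, an actin-binding PP1 partner, was at 8990 ± 808 CPM in striatal neurons and ranged from -0.36 to 0.28 in log2 fold change. Rif1, which brings PP1 to replication origins, led the nuclear group at 169 ± 9.71 in neuroblasts or dividing nuclei. Ppp1r13b, an ASPP protein gene, was at 165 ± 6.37 in LS neurons. In newly forming oligodendrocytes Ppp1r21, an endosomal protein gene, was at 191 and 236 in C57J and 117 and 140 in nude and BALB/c. The last 2 values rest on 34 and 36 nuclei, and how common that order was among all genes there is not given. Ppp1r21 was called in 0 of 10 classes. None of these 7 leading genes was called in a class other than oligodendrocytes.

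The catalytic subunits of the related phosphatases PP2A, calcineurin, PP4, PP5 and PP6 gave 0 calls in 80 tests over the 11 classes, and 0 had an unadjusted p below 0.05 with edgeR. DESeq2 called 0 of them, beside 3 to 657 of all genes by class. Of all genes in the same classes, 5.17 to 14.6% had an unadjusted p below 0.05 and 0 to 2.18% were called. In oligodendrocytes, where Ppp1cc was at 40.7 and 32.2 CPM in nude and BALB/c, Ppp2ca of PP2A was at 144, 154, 112 and 138 and Ppp3ca of calcineurin at 1005, 984, 1139 and 729. The 8 genes had fitted log2 fold changes of -0.38 to 0.20 in that class, beside -3.25 for Ppp1cc, which was chosen with its fall there known.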

How the data were processed

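Single-nucleus RNA-seq libraries of the LS were made with the 10x 3' chemistry. The authors aligned reads to mm10 with Cell Ranger 7.0.1 and deposited the counts of UMIs for each gene in each nucleus, not normalized. The genes and lists were chosen with earlier results of these data known. Nuclei with over 200 and under 6000 genes, over 300 and under 50000 UMIs and under 2% mitochondrial UMIs were kept, and predicted doublets (9.66 to 11.9% per library) were removed. The 4 libraries were clustered together (Leiden, leidenalg 0.10.2, resolution 1) without the members, the listed genes and 149 strain-dependent genes, and clusters were named from marker genes. In all, 791 nuclei stayed unnamed. UMIs were summed per library and class. C57J was compared with nude and BALB/c by edgeR 4.0.16 in R 4.3.3 (filterByExpr, TMM, quasi-likelihood test, Benjamini-Hochberg over all genes of the class), which was checked on simulated data. DESeq2 1.42.0 was an alternative. Genes named beside the members were the listed regulatory subunits and phosphatases called, the most abundant of each regulatory role, the 3 largest changes near Ppp1cc and the 5 most alike to each member. Cux2, P2rx7, Atp2a2, Atxn2, the genes beside Ppp1ccb and the oligodendrocyte subclusters were chosen after values were seen. Whether intronic reads were counted is not given in the sources used here, and isoforms cannot be separated. A count of 0 was read as allowing 3 counts. Intervals of ratios and shares cover counting error only, whereas those of edgeR log2 fold changes come from its fit across libraries. That fit put nude and BALB/c together as a group and had no batch term. The values of 1 marker gene are not reported here.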

Additional observations from a re-analysis of the deposited data

Results flagged for a closer look

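Ppp1cb drew attention because nude and BALB/c lay below both C57J libraries in some classes and above both in others. The log2 ratio of mean CPM was -0.26 in microglia and 0.16 in striatal neurons. Oligodendrocyte precursors and astrocytes had the order of microglia, and LS neurons had that of striatal neurons. The lower order held for 18.9%, 24.6% and 26.1% of all genes tested in microglia, precursors and astrocytes. The higher order held for 15.8% in striatal neurons and 18.9% in LS neurons, so either order was common. The difference between these classes was not tested, and neither class's own difference was called.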

How the results depend on the processing

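The log2 ratio of Ppp1cc in oligodendrocytes kept its direction under each of 9 alternatives, from -3.67 without C57J 2 to -2.77 without C57J 1. Outside oligodendrocytes, 278 of 326 recomputed values of the members kept their direction and stayed uncalled, 47 changed sign and 1 became called. Without filter on low counts, the sign turned for Ppp1cc in precursors (0.0055) and for Ppp1cb in neuroblasts or dividing nuclei (0.027) and Lhx6 or Chat neurons (0.0081). With DESeq2, it turned for Ppp1cc in precursors (0.012) and Ppp1cb in neuroblasts or dividing nuclei (0.0017). With predicted doublets kept, it turned for Ppp1cc in newly forming oligodendrocytes (0.042), LS neurons (-0.087) and Lhx6 or Chat neurons (-0.093), for Ppp1ca in precursors (-0.042) and Slc17a6 neurons (-0.0090), and for Ppp1cb in vascular nuclei (-0.013), neuroblasts or dividing nuclei (0.049) and other neurons (-0.0058). At resolution 2, it turned for Ppp1cb in newly forming oligodendrocytes (-0.18), vascular nuclei (-0.034), Lhx6 or Chat neurons (0.037) and other neurons (-0.013), and for Ppp1cc in Lhx6 or Chat neurons (-0.00045). With classes from marker UMIs, it turned for Ppp1cc in neuroblasts or dividing nuclei (-0.079), Ppp1ca in striatal neurons (0.13) and Slc17a6 neurons (-0.67), and Ppp1cb in other neurons (-0.0024).

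With 1 library left out, the lone library of a group was assumed to vary like the others. Values of Ppp1ca then ranged from -0.73 to 0.15 in LS neurons, -0.58 to 0.084 in Lhx6 or Chat neurons, -0.14 to 0.38 in Slc17a6 neurons, -0.74 to 0.16 in neuroblasts or dividing nuclei, -0.17 to 0.35 in precursors, -0.52 to 0.19 in other neurons and -0.49 to 0.48 in striatal neurons. Those of Ppp1cb ranged from -0.049 to 0.026 in Lhx6 or Chat neurons, -0.045 to 0.12 in Slc17a6 neurons, -0.22 to 0.33 in neuroblasts or dividing nuclei, -0.21 to 0.34 in newly forming oligodendrocytes and -0.32 to 0.41 in vascular nuclei. Those of Ppp1cc ranged from -0.13 to 0.11 in Lhx6 or Chat neurons, -0.032 to 0.072 in LS neurons, -0.024 to 0.17 in neuroblasts or dividing nuclei, -0.19 to 0.21 in precursors and -0.22 to 0.037 in striatal neurons. Regulatory subunits called ranged from 0 to 4 in astrocytes, 0 to 3 in LS neurons and 0 to 1 in microglia, oligodendrocytes, striatal neurons, Slc17a6 neurons and neuroblasts or dividing nuclei. Without filter, 1 was called in astrocytes. The cause of these changes was not tested. Over all genes, calls per class ranged from 0 to 408 in the reported fit from 3 to 657 with DESeq2, from 29 to 1057 without filter, and, with C57J 1, C57J 2, nude or BALB/c left out, from 0 to 533, 0 to 1183, 15 to 877 and 11 to 87. The thinned shares rose with depth, for Ppp1cc in oligodendrocytes to 51.7, 30.8, 7.78 and 6.99% at 2000 UMIs. No paired analysis was possible because nude and BALB/c have 1 library each, so the groups share fewer than 2 replicate numbers. Depth limits Ppp1ca in vascular nuclei, with 11 UMIs in all.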
